A study of Mus musculus with 8 samples.

Results

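Matrix metalloproteinases (MMPs), the ADAMTS proteases, the ADAMTS-like proteins and the tissue inhibitors of metalloproteinases (TIMPs) were examined in lungs of mice given lipopolysaccharide (LPS) with or without tangeretin, a citrus flavone. The members were the genes of the count table whose symbols are Mmp, Adamts or Adamtsl followed by a number, or Timp1 to Timp4. This rule found 46 of 24584 genes, of which 20 were MMPs, 17 were ADAMTS genes, 5 were ADAMTS-like genes and 4 were TIMPs. All mice were wild-type males of the outbred ICR strain, 6 to 8 weeks old. The LPS group (n = 4) received LPS of E. coli O111:B4 intraperitoneally at 5 mg/kg. The LPS + Tan group (n = 4) received 50 mg/kg tangeretin by the same route, with the same LPS injection following 30 min later. Lung tissue was taken 12 h after LPS. All 8 samples had received LPS, and neither an untreated group nor a group given tangeretin alone was analysed here, so the values compare tangeretin with its absence under LPS and hold no measure of the response to LPS itself.

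MMPs are zinc-dependent proteases that cut collagens, elastin, basement membrane and also cytokines and receptors. Most are secreted as inactive proenzymes, while the membrane-type MMPs stay on the cell surface. ADAMTS proteases carry thrombospondin repeats and cut proteoglycans such as versican and aggrecan, or trim the propeptides of fibrillar collagens. ADAMTS-like proteins have the repeats but no protease domain, and several bind fibrillin microfibrils. TIMPs block the active site of MMPs and, in the case of TIMP3, of several ADAM and ADAMTS proteases. In the lung, neutrophils carry MMP8, MMP9 and MMP25, macrophages make MMP12, and fibroblasts make MMP2, MMP14 and many ADAMTS proteases. mRNA levels do not measure proenzyme activation or inhibitor binding.

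RNA-seq gave between 38895654 and 39931970 reads counted on genes per sample. Levels of 1 gene across samples are given as CPM, counts scaled to the library total and by the TMM method, with TMM factors of 0.9587 to 1.054. Correlations between samples in log2(CPM + 1) lay between 0.9833 and 0.9943. Samples that were extreme for several members are named below. The labels do not state that each sample is a separate mouse, so p-values measure the spread between these samples. The 109 genes of 12 cell type lists were also read, since in bulk lung fewer cells of a type and less RNA per cell cannot be told apart.

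The genes of 7 member MMPs lie in a row on chromosome 9, within 427 kb of the GRCm38 assembly. Their order is Mmp13, Mmp12, Mmp3, Mmp10, Mmp8, Mmp27 and Mmp7. Only members are listed, so other genes can lie between them. Mmp1b, an MMP gene that is not a member, overlaps Mmp12 on the other strand and shares 157 exon bases with it. The 100 bases before the start site are shown for 6 of these 7 members, all but Mmp27, from the RefSeq table of GRCm38.p6. They are shown because members of this row differed widely in level. Capitals mark the AP-1 motif TGANTCA and the TATA motif TATAAA, searched on both strands.
Mmp13, chr9:7272414-7272513, + strand: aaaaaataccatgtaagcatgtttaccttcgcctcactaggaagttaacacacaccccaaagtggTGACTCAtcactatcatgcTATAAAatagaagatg
Mmp12, chr9:7347274-7347373, + strand, the second of 2 starts: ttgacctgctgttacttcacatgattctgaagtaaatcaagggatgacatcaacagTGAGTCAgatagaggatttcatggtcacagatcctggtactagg
Mmp3, chr9:7445722-7445821, + strand: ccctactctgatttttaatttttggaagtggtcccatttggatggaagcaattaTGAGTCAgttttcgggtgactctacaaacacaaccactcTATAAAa
Mmp10, chr9:7502242-7502341, + strand: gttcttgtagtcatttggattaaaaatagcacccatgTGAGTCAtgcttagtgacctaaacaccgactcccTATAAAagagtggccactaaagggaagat
Mmp8, chr9:7558329-7558428, + strand: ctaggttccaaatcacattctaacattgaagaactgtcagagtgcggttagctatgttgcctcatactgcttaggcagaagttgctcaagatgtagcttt
Mmp7, chr9:7691990-7692089, + strand, the first of 2 starts: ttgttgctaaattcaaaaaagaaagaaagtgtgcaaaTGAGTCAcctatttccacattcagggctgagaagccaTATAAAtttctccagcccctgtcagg

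The promoter table held 35 promoters of 32 of the 46 member genes. In the 250 bases before the start site, TGANTCA was found in 5 of the 35 member promoters, those of Mmp13, Mmp12, Mmp3, Mmp10 and Mmp7, against 6.75% of all 32851 promoters in the table. The motif began 35 bases before the start in Mmp13, 44 in Mmp12, 46 in Mmp3 and 63 in both Mmp10 and Mmp7. The other listed starts of Mmp12 and Mmp7 had no such match. The windows of Mmp8 and Mmp27, which lie within the same row of genes, held no match. TATAAA was found in 7 member promoters, of Adamts1, Adamtsl2, Mmp3, Mmp7, Mmp10, Mmp13 and Mmp21, against 12.4% of all promoters. The NF-κB motif was found in 4, of Adamts9, Adamts20, Mmp12 and Mmp25, against 7.25% of all promoters. A match is a description of letters, and no match says nothing of a factor.

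Levels of different genes were compared by FPKM, which is per length of the gene model. Timp3, which codes for an inhibitor bound to the matrix, was the most abundant member, with a mean of 657 FPKM over the 8 samples and a range of 469 to 776 that no other member reached. Mmp8 (neutrophil collagenase) followed with 201 FPKM, Timp1 with 146 FPKM and Timp2 with 111 FPKM. The ranges of these neighbours overlapped, since Timp1 alone ran from 83.0 to 267 FPKM. Mmp2 and Mmp9, the gelatinases, had means of 92.3 and 72.5 FPKM. In all, 17 members had a mean of at least 10 FPKM, 14 had 1 to under 10 FPKM, and 15 had under 1 FPKM.

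Levels differed widely within the chromosome 9 row. Mmp8 had 201 FPKM and Mmp3 (stromelysin-1) had 10.3 FPKM, while Mmp13 (collagenase-3) had 0.721, Mmp12 (macrophage elastase) 0.627, Mmp7 (matrilysin) 0.613, Mmp27 0.495 and Mmp10 (stromelysin-2) 0.0293 FPKM. The most abundant gene of the row was thus without an AP-1 match in its window, and the 5 genes with a match ran from 0.0293 to 10.3 FPKM.

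Each family was carried by few genes. Of the summed FPKM of the MMPs, 42.4% was Mmp8, and Mmp8, Mmp2 and Mmp9 together made 77.3%. Adamts1, Adamts15 and Adamts9, which code for versican-cutting proteases, made 68.2% of the ADAMTS sum, and Timp3 alone made 71.8% of the TIMP sum. The MMP sum was 486 ± 17.3 FPKM (SD, n = 4) in the LPS group and 459 ± 27.3 FPKM (SD, n = 4) in the LPS + Tan group. The ADAMTS sum was 150.1 ± 24.1 and 130.0 ± 27.7 FPKM, and the ADAMTS-like sum 57.8 ± 6.96 and 55.7 ± 4.46 FPKM. The TIMP sum was 1009.6 ± 93.8 FPKM in the LPS group and 821 ± 122 FPKM in the LPS + Tan group, the only family sum whose group means differed by more than the larger of their SDs.

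Few members differed between the groups. Of the 46 members, 41 passed the count filter of edgeR and were tested, among 15706 genes in all. At an unadjusted p below 0.05 by edgeR's quasi-likelihood test, 2 members, Mmp11 and Adamts10, were higher in the LPS + Tan group (4.88% of 41, against 2.87% of all tested genes). In the lower direction 5 members, Mmp19, Mmp24, Adamts15, Timp1 and Timp3, were called (12.2%, against 2.25% of all tested genes). Both directions together made 17.1% of the members and 5.12% of all tested genes. With a log2 fold change beyond 1 in size as a second threshold, 0 members were called, against 0.350% of all tested genes in the higher direction and 0.299% in the lower. At an adjusted p below 0.05 edgeR called 0 of the members and 0% of all tested genes, and DESeq2 called 1 of the 41 members to which it gave an adjusted p, Mmp11, and 0.226% of all genes. Mmp11 was also the only member whose groups did not overlap in CPM (2.44% of 41, against 2.73% of all tested genes).

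The MMP, ADAMTS and ADAMTS-like families were centred near 0. Over the 41 tested members, 20 log2 fold changes were above 0 and 21 below, with a median of -0.00061, beside a median of 0.0070 over all tested genes. With scaling to total counts only, the median of the members was 0.044, with 24 above and 17 below 0, beside 0.049 for all tested genes, and that of the ADAMTS genes took the other sign. The MMPs had 10 above and 7 below 0 with a median of 0.032, the ADAMTS genes 6 and 9 with -0.022, and the ADAMTS-like genes 3 and 2 with 0.026. The TIMPs had 1 above and 3 below 0, with a median of -0.24. The 5 members not tested had few counts over the 8 samples, 55 for Mmp16, 45 for Adamts19, 27 for Adamts13, 16 for Mmp10 and 5 for Mmp21. Mmp21 had its 5 counts in 1 LPS + Tan sample and 0 counts in the other 7. At 3 counts, and scaled to total counts only, this allows up to 0.0771 CPM in each of those 7, for counting error only.

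**Figure D1:**
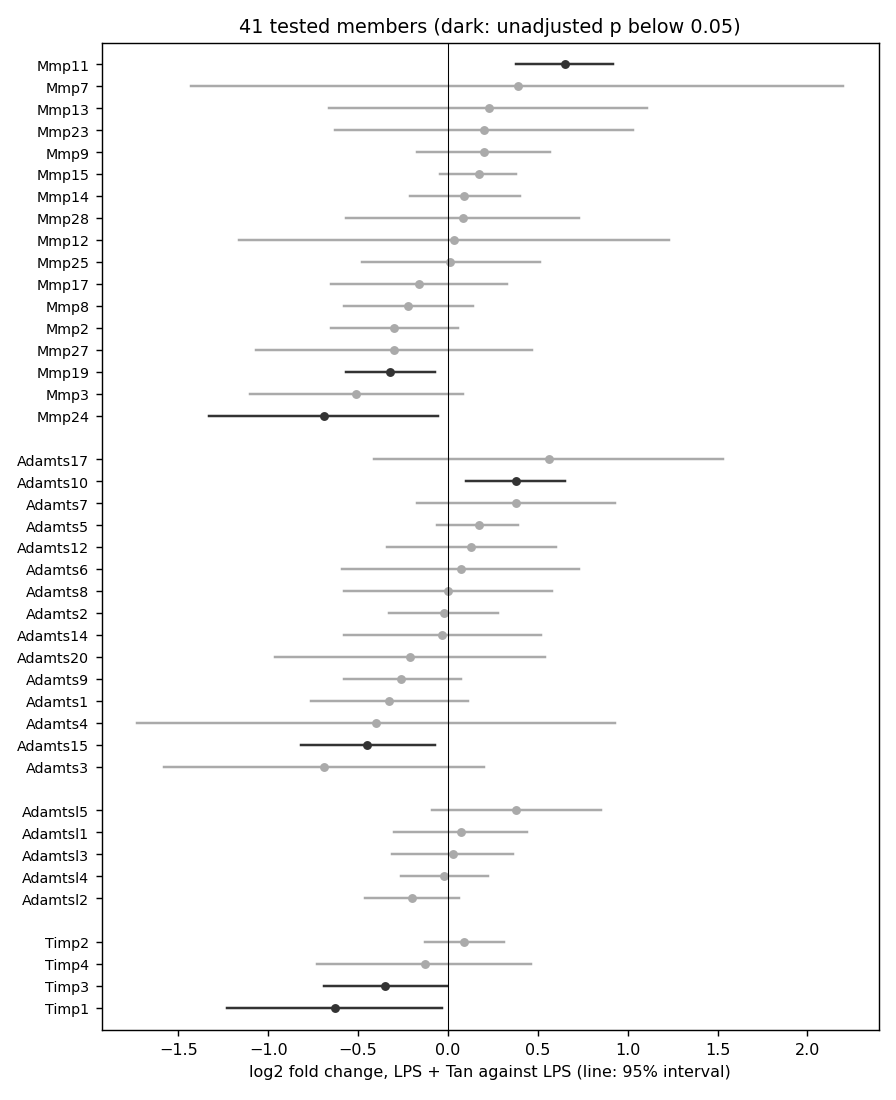
Log2 fold change of LPS + Tan against LPS for the 41 tested members, with 95% intervals of edgeR's quasi-likelihood test, grouped by family. The intervals of Mmp11 and Adamts10 lie above 0, those of Mmp19, Mmp24, Adamts15, Timp1 and Timp3 lie below 0, and the other 34 span 0.

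Among the inhibitors, Timp1 and Timp3 were lower in the LPS + Tan group, and Timp2 and Timp4 did not pass the test. Timp1, the inducible inhibitor of the family, read 131, 155, 248 and 104 CPM in LPS replicates 1 to 4 and 71.7, 141, 93.2 and 106 CPM in LPS + Tan replicates 1 to 4. LPS replicate 3 was far above the rest, and only LPS + Tan replicates 1 and 3 lay below every LPS sample. The means were 159.5 ± 62.4 and 103 ± 28.9 CPM (SD, n = 4 each), a log2 fold change of -0.63 (standard error 0.27, unadjusted p = 0.0410, adjusted p = 0.924 by edgeR). Without LPS replicate 3 the log2 fold change was -0.34 and the call was lost. The gene lies at chrX:20870166-20874735 on the + strand of GRCm38, inside an intron of the oppositely oriented Syn1, with which it shares 0 exon bases.

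Timp3 read 3251, 3356, 3790.1 and 3428 CPM in the LPS samples and 2131, 3278, 2381 and 3082 CPM in the LPS + Tan samples. LPS + Tan replicates 1 and 3 were the low samples and replicate 2 lay within the LPS range, so the groups overlapped. The means were 3456 ± 234 and 2718 ± 549 CPM (SD, n = 4 each), a log2 fold change of -0.35 (standard error 0.15, unadjusted p = 0.0484, adjusted p = 0.924 by edgeR). Its interval, -0.69 to -0.0029, ended just short of 0. Timp3 lies at chr10:86300372-86349506 on the + strand, within Syn3 of the other strand, with 1733 exon bases in common. Whether counting used the strand is not stated, and Syn3 itself was at 0.806 to 1.77 CPM.

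Timp2, which both inhibits MMPs and takes part in the activation of MMP2 by MMP14, read 406, 378, 379 and 393 CPM in the LPS samples and 432, 366, 471 and 387 CPM in the LPS + Tan samples. The LPS + Tan samples lay on both sides of the LPS range, with a log2 fold change of 0.090 and an interval of -0.13 to 0.31. Timp4, an inhibitor best known from the heart, was at 3.25 ± 0.799 and 2.96 ± 1.01 CPM (SD, n = 4 each), a log2 fold change of -0.13 (standard error 0.27).

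**Figure D2:**
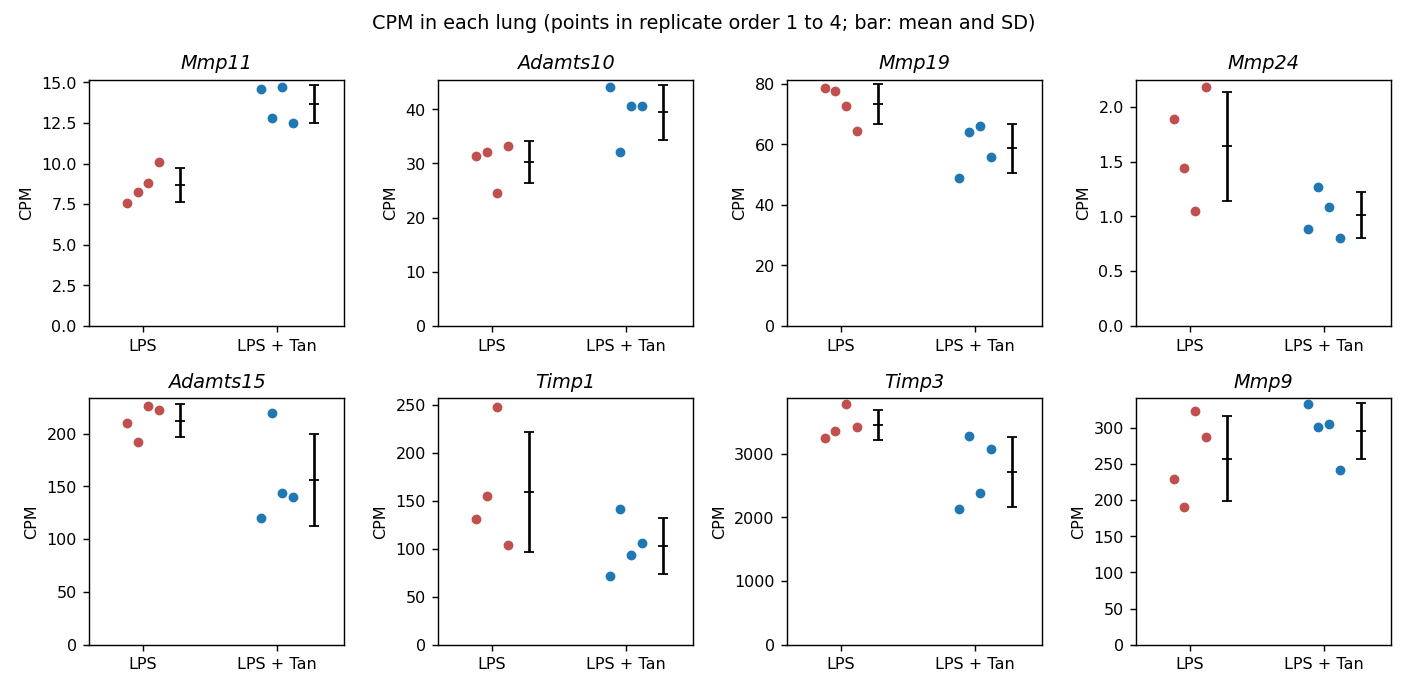
CPM of the 7 called members and of Mmp9 in each sample, with the mean and SD of each group beside the points. The LPS and LPS + Tan points of Mmp11 are apart, at 7.57 to 10.1 against 12.5 to 14.7 CPM, and the points of every other gene shown overlap between the groups.

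Mmp11, which codes for stromelysin-3, an MMP activated inside the cell by furin and known from stromal fibroblasts, had the clearest difference of the members. Its CPM was 7.57, 8.26, 8.78 and 10.1 in LPS replicates 1 to 4 and 14.6, 12.8, 14.7 and 12.5 in LPS + Tan replicates 1 to 4. Every LPS + Tan sample lay above every LPS sample. The means of 8.67 ± 1.06 and 13.6 ± 1.16 CPM (SD, n = 4 each) gave a log2 fold change of 0.65 (standard error 0.12), a 1.57-fold difference. The unadjusted p was 0.000296 and the adjusted p 0.527 by edgeR, while DESeq2 gave an adjusted p of 0.00165, and the adjusted p ran from 0.00165 to 1 over the alternatives. The level was low, at 4.90 FPKM.

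The gene lies at chr10:75923222-75936496 on the - strand. It shares 155 of its 2778 exon bases with Chchd10 of the other strand, a mitochondrial protein gene, which was at 13.0 to 19.5 CPM in the LPS samples and 17.8 to 20.2 CPM in the LPS + Tan samples (log2 fold change 0.19, standard error 0.13). Reads in the shared bases cannot be told apart without the strand. Its 100 bases before the RefSeq start, shown because this was the member with separate groups, held none of the 3 motifs.
Mmp11, chr10:75932503-75932602, - strand: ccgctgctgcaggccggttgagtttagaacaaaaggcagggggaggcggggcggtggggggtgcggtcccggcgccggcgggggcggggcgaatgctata

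Mmp19, which codes for a basement membrane protease found in macrophages and vessels, was lower in the LPS + Tan group. It read 78.7, 77.7, 72.8 and 64.5 CPM in the LPS samples and 48.8, 64.1, 66.2 and 55.8 CPM in the LPS + Tan samples. LPS + Tan replicate 3 was above the lowest LPS sample, and the other 3 were below it. The means were 73.4 ± 6.50 and 58.7 ± 8.0 CPM (SD, n = 4 each), a log2 fold change of -0.32 (standard error 0.11, unadjusted p = 0.0157, adjusted p = 0.924 by edgeR). The gene lies at chr10:128790910-128800824 on the + strand and shares 789 exon bases with Tmem198b of the other strand (log2 fold change -0.18, standard error 0.14).

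Mmp24, a membrane-type MMP known mainly from the nervous system, was the least abundant of the called members at 0.307 FPKM. It read 1.89, 1.44, 1.05 and 2.18 CPM in the LPS samples and 0.886, 1.27, 1.09 and 0.806 CPM in the LPS + Tan samples. The groups overlapped through LPS replicate 3. The log2 fold change was -0.69 with a standard error of 0.29 (unadjusted p = 0.0365 by edgeR's test). Mmp24 lies at chr2:155775342-155818366 on the + strand and shares 637 exon bases with BC029722 of the other strand, which was more abundant, at 17.5 to 25.7 CPM (log2 fold change 0.083, standard error 0.13).

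The neutrophil proteases did not pass the test. Mmp8 read 572, 570.3, 381 and 591 CPM in the LPS samples and 405, 384, 529.7 and 500.2 CPM in the LPS + Tan samples. The 3 highest values were LPS samples, but the lowest was LPS replicate 3. The log2 fold change was -0.22 with an interval of -0.58 to 0.14, and without LPS replicate 3 it was -0.34, past an unadjusted p of 0.05 by edgeR. Mmp9, the inducible gelatinase, read 229, 191, 323 and 287 CPM against 334, 301, 305 and 242 CPM. Its groups overlapped, and its log2 fold change of 0.20 had an interval of -0.17 to 0.57. Mmp25, the membrane-anchored leukolysin, was at 30.9 ± 9.60 and 31.2 ± 7.11 CPM (SD, n = 4 each), a log2 fold change of 0.011 (standard error 0.22).

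These 3 genes were set beside 14 neutrophil marker genes, among them S100a8, S100a9, Ly6g and Cxcr2 and none of the members. The list had a mean log2 CPM of 6.39 ± 0.18 in the LPS group and of 6.35 ± 0.11 in the LPS + Tan group (SD, n = 4 each), and 0 of its 14 genes passed an unadjusted p of 0.05 by edgeR. Across the 8 samples Mmp9 followed the list with a Pearson r of 0.83 (exact permutation p = 0.00910, adjusted p = 0.0228 over 5 relations) and a Spearman rho of 0.88 (exact permutation p = 0.00724, adjusted p = 0.0362). Mmp25 followed it with an r of 0.93 (exact permutation p = 0.00201, adjusted p = 0.0100) and a rho of 0.83 (exact permutation p = 0.0154, adjusted p = 0.0384). Mmp8 did not, with an r of -0.54 (exact permutation p = 0.178, adjusted p = 0.223) and a rho of -0.40 (exact permutation p = 0.327). LPS replicate 3 had the highest score of the list together with the highest Mmp25 and the lowest Mmp8.

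Without the 2 samples farthest from the median of the list, LPS replicates 2 and 3, the r was 0.72 for Mmp9 (exact permutation p = 0.0875) and 0.82 for Mmp25 (exact permutation p = 0.0667), so the r stayed high while the p, over 6 samples, no longer passed the threshold. With single samples left out, the r of Mmp25 was 0.89 to 0.99 and passed in all 8 cases, and that of Mmp9 was 0.73 to 0.86 and passed in 6, not without LPS replicate 2 (adjusted exact permutation p = 0.144) or LPS + Tan replicate 1 (0.0610). The r of Mmp8 was -0.12 without both of those LPS samples (exact permutation p = 0.840) and -0.68 to -0.30 with single samples left out. The 2 quantities of each relation come from the same libraries and share their depth and composition. With each sample taken as its deviation from the mean of its group, the r was 0.98 for Mmp9 (adjusted exact permutation p = 0.000248), 0.95 for Mmp25 (0.00360) and -0.65 for Mmp8 (0.108). These p come from all pairings of the 8 deviations and make no allowance for the means taken off, and 4 samples are too few for a relation within a single group.

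**Figure D3:**
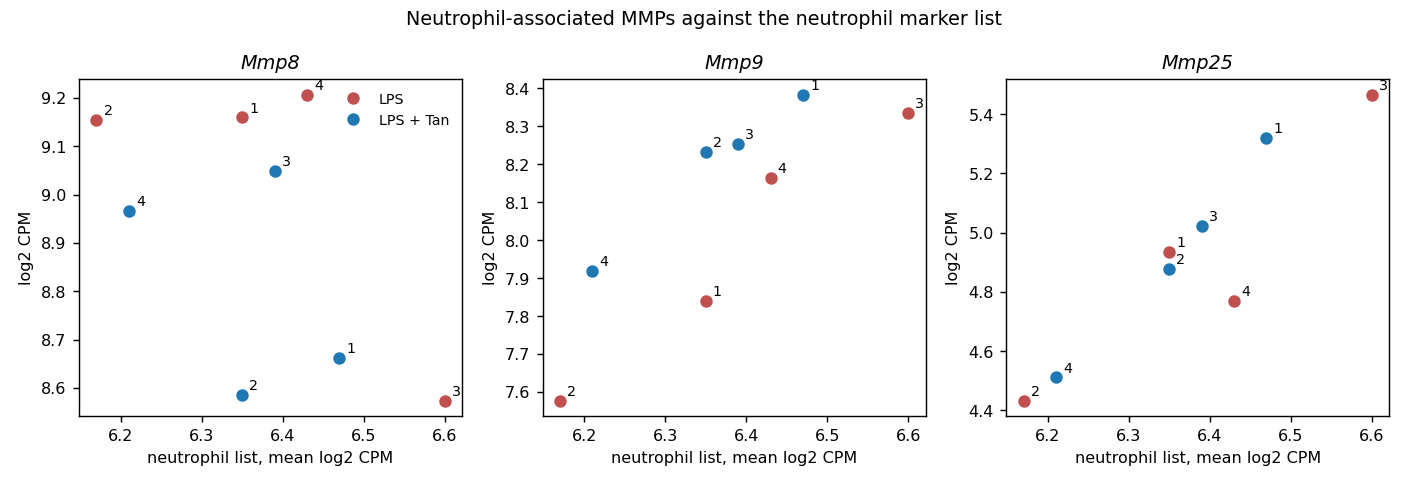
Log2 CPM of Mmp8, Mmp9 and Mmp25 against the mean log2 CPM of 14 neutrophil marker genes in the 8 samples, coloured by group. Mmp9 and Mmp25 are high where the list is high (r of 0.83 and 0.93), whereas Mmp8 is lowest in LPS replicate 3, where the list is highest.

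The other tested MMPs did not pass the test with all samples in. Mmp2 (gelatinase A) read 326, 317, 389 and 278 CPM in the LPS samples and 215, 332, 224 and 294 CPM in the LPS + Tan samples. Its low samples, LPS + Tan replicates 1 and 3, were those that were low in Timp3. The log2 fold change was -0.30 with a standard error of 0.16 (unadjusted p = 0.0874 by edgeR). Mmp2 did not follow the fibroblast list across the 8 samples (r = -0.48, exact permutation p = 0.228, and rho = -0.52, exact permutation p = 0.197; adjusted p = 0.228 and 0.246). Without the 2 samples farthest from the median of that list, its r was -0.80 (exact permutation p = 0.05).

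Mmp14, the membrane-type protease that activates MMP2, was at 169 ± 22.1 and 181 ± 31.0 CPM (SD, n = 4 each), with a log2 fold change of 0.091. Mmp3 read 30.1, 19.9, 27.2 and 10.6 CPM in the LPS samples and 17.7, 14.2, 15.2 and 14.7 CPM in the LPS + Tan samples. All LPS + Tan samples thus lay inside the wide range of the LPS group, with a log2 fold change of -0.51 and an interval of -1.10 to 0.084. That range rests on LPS replicate 4, without which the log2 fold change was -0.74 (unadjusted p = 0.000902 by edgeR). Mmp12 was at 2.35 ± 1.37 and 2.40 ± 1.79 CPM (SD, n = 4 each). It did not follow the macrophage list (r = -0.68, exact permutation p = 0.0659, and rho = -0.60, exact permutation p = 0.132; adjusted p = 0.110 and 0.220), and its r was -0.56 without the 2 farthest samples (exact permutation p = 0.282). Mmp13 had a log2 fold change of 0.23 (standard error 0.40). Mmp7 ran from 0.0256 CPM, a single count in LPS replicate 1, to 1.5 CPM in LPS replicate 4, and its log2 fold change of 0.39 had an interval of -1.43 to 2.20.

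Protease and inhibitor were also set against each other within each sample, as ratios of counts that do not depend on scaling between samples. The Mmp9 to Timp1 ratio was 1.75, 1.23, 1.30 and 2.76 in LPS replicates 1 to 4 and 4.66, 2.14, 3.27 and 2.28 in LPS + Tan replicates 1 to 4. The 3 lowest ratios were LPS samples, but LPS replicate 4 exceeded LPS + Tan replicates 2 and 4. The mean log2 ratio was 0.74 ± 0.53 (SD, n = 4) in the LPS group and 1.55 ± 0.52 (SD, n = 4) in the LPS + Tan group, a difference of 0.82 (exact two-sided permutation p = 0.0857, adjusted p = 0.257 over 3 ratios, where the smallest p that 4 against 4 samples allow is 0.0286). The Mmp8 to Timp1 ratio ranged from 1.54 to 5.67 in the LPS group and from 2.73 to 5.68 in the LPS + Tan group, with a log2 difference of 0.39 (exact permutation p = 0.514, adjusted p = 0.514), which was 0.0040 without LPS replicate 3. The Mmp2 to Timp2 ratio was 0.803, 0.838, 1.03 and 0.708 against 0.498, 0.908, 0.475 and 0.761, with a log2 difference of -0.40 (exact permutation p = 0.229, adjusted p = 0.343). None of the 3 ratios passed the threshold.

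**Figure D4:**
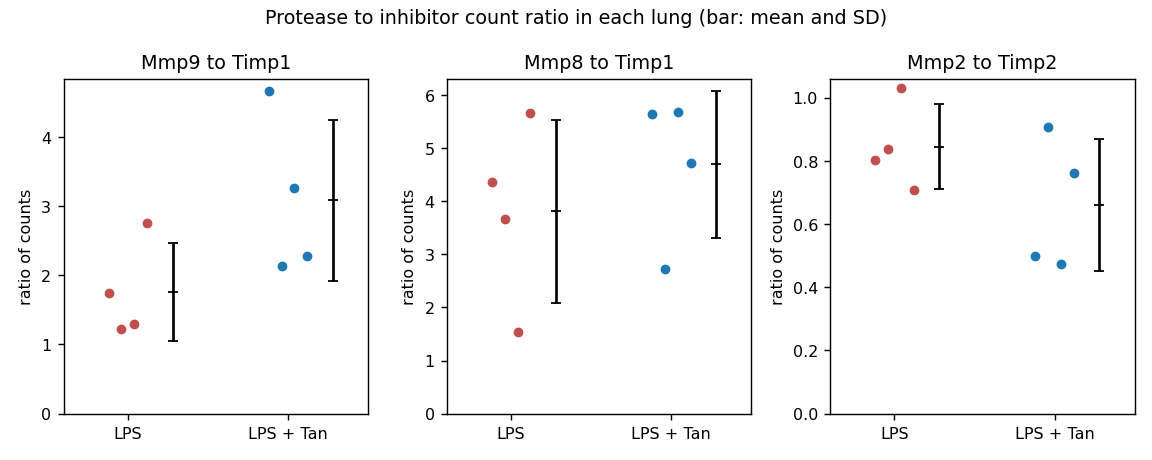
Ratio of counts of Mmp9 to Timp1, Mmp8 to Timp1 and Mmp2 to Timp2 in each sample, with the mean and SD of each group. The Mmp9 to Timp1 ratio reaches 4.66 in LPS + Tan replicate 1, and in each panel the groups overlap.

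Of the ADAMTS genes, Adamts15 was lower and Adamts10 higher in the LPS + Tan group. Adamts15, whose product cuts versican and aggrecan, read 209.7, 192, 226 and 222 CPM in the LPS samples and 119.9, 219.9, 144 and 140.3 CPM in the LPS + Tan samples. LPS + Tan replicate 2 lay within the LPS range, and the other 3 were below every LPS sample. The means were 213 ± 15.2 and 156 ± 43.9 CPM (SD, n = 4 each), a log2 fold change of -0.45 (standard error 0.17, unadjusted p = 0.0242, adjusted p = 0.924 by edgeR). The gene lies at chr9:30899155-30922452 on the - strand.

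Adamts10, a protein of fibrillin microfibrils with little protease activity of its own, read 31.3, 32.2, 24.6 and 33.2 CPM in the LPS samples and 44.1, 32.2, 40.7 and 40.7 CPM in the LPS + Tan samples. Again LPS + Tan replicate 2 was the sample inside the LPS range. The log2 fold change was 0.38 with a standard error of 0.12 (unadjusted p = 0.0119, adjusted p = 0.924 by edgeR). Adamts10 lies at chr17:33524204-33553782 on the + strand. Adamts17, a related fibrillin-associated member, had a log2 fold change of 0.56 (standard error 0.43).

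The other proteoglycanases were not called. Adamts1 was at 293 ± 67.6 and 233 ± 55.3 CPM (SD, n = 4 each), a log2 fold change of -0.33 (standard error 0.19), and Adamts9 had -0.26 (standard error 0.15). Adamts4, aggrecanase-1, read 42.1, 45.6, 199 and 40.3 CPM in the LPS samples and 53.3, 124, 42.1 and 28 CPM in the LPS + Tan samples. LPS replicate 3 and LPS + Tan replicate 2 stood above all others, and the log2 fold change of -0.40 became 0.54 without LPS replicate 3. Adamts5, aggrecanase-2, was at 34.8 ± 4.86 and 39 ± 0.908 CPM (SD, n = 4 each), with a log2 fold change of 0.17.

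Of the procollagen N-proteinases, Adamts2 was at 99.3 ± 13.3 and 97.8 ± 15.6 CPM (SD, n = 4 each), and its log2 fold change of -0.022 took the other sign with scaling to total counts only. Adamts3 read 9.62, 19.3, 14.9 and 32.0 CPM against 6.91, 7.43, 13.6 and 18.9 CPM. Both groups spread several fold, and its log2 fold change of -0.69 had an interval of -1.58 to 0.20. The third procollagen N-proteinase, Adamts14, had a log2 fold change of -0.034.

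The ADAMTS-like genes were not called. Adamtsl2, which binds fibrillin and a TGF-β binding protein, was the most abundant of them at 30.3 FPKM, with 125 ± 20.2 and 109 ± 8.06 CPM (SD, n = 4 each) and a log2 fold change of -0.20. Adamtsl4 had a log2 fold change of -0.021 that took the other sign with scaling to total counts only. Adamtsl5 had 0.38 (standard error 0.21, unadjusted p = 0.102 by edgeR).

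Some samples were extreme for several members. LPS replicate 3 was the highest of the 8 samples for 9 of the 41 tested members, Mmp2, Mmp25, Adamts1, Adamts4, Adamts9, Adamts15, Adamtsl3, Timp1 and Timp3, and the lowest for 7. LPS replicate 4 was also the highest for 9, among them Mmp8, Mmp24 and Adamts3, and the lowest for Mmp3 and Adamtsl1. LPS + Tan replicate 1 was the lowest for 7 members, among them Timp1, Timp3, Mmp2, Mmp19 and Adamts15. LPS + Tan replicate 4 was the lowest for 13 members and the highest for Mmp17 alone. With each of the 8 samples left out in turn, Mmp11, Adamts10 and Mmp19 stayed at an unadjusted p below 0.05 by edgeR in all 8 fits, and Mmp24, Adamts15, Timp1 and Timp3 did not. Without LPS + Tan replicate 1 or replicate 3, Mmp19 was the only member called lower, and without LPS + Tan replicate 2 there were 8. The share of all genes called in either direction moved in the same way in these fits, to 3.02%, 3.72% and 10.2%. Timp3 lost its call when any single LPS sample, or LPS + Tan replicate 1 or 3, was left out, with log2 fold changes of -0.45 to -0.25 over the 8 fits. The calls of Mmp24 (-0.86 to -0.53), Adamts15 (-0.66 to -0.34) and Timp1 (-0.82 to -0.34) were each lost without LPS + Tan replicate 1, 3 or 4. They were also lost without LPS replicate 1 or 4 for Mmp24, 3 or 4 for Adamts15 and 2 or 3 for Timp1. Calls were gained by Adamts3, Adamts17 and Adamtsl5 without LPS replicate 1, Adamts1 without LPS replicate 2, Mmp8 and Adamtsl2 without LPS replicate 3, and Mmp3 and Adamts5 without LPS replicate 4. They were also gained by Mmp2, Adamts1, Adamts7, Adamts9 and Adamtsl5 without LPS + Tan replicate 2, and by Mmp15 and Adamts3 without LPS + Tan replicate 4.

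The genes that activate, restrain or stand beside these proteases were read as 5 lists with 62 tested genes. Of these 62, edgeR called 2 higher and 3 lower at the unadjusted threshold, where 2.87% and 2.25% of all tested genes were called, and their median log2 fold change was -0.014. Reck, a membrane-anchored inhibitor of MMPs, was at 34.5 ± 0.760 and 45.0 ± 10 CPM (SD, n = 4 each), a log2 fold change of 0.38 (standard error 0.15, unadjusted p = 0.0255 by edgeR). Its LPS + Tan replicate 2, at 32.2 CPM, lay below every LPS sample. Plau, the urokinase that turns plasminogen into an MMP-activating protease, was at 4.07 ± 0.591 and 6.18 ± 1.88 CPM (SD, n = 4 each), a log2 fold change of 0.60 (standard error 0.22, unadjusted p = 0.0193 by edgeR). Lower were Serpine2, which codes for a protease inhibitor, with -0.31, Pcsk5, a proprotein convertase gene, with -0.43, and the integrin gene Itgb3 with -0.48. Each of these called related genes had an adjusted p of 0.924 by edgeR. Over 18 alternatives the call was lost in 9 for Pcsk5, 5 for Serpine2, 5 for Reck, 2 for Plau and 1 for Itgb3.

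Other regulators were not called. Lcn2 was at 5231 ± 865 and 4154 ± 896 CPM (SD, n = 4 each), a log2 fold change of -0.33 (unadjusted p = 0.0962 by edgeR). Plaur had a log2 fold change of -0.14 and Bsg, an inducer of MMPs, of -0.028, which took the other sign with scaling to total counts only. By list, 1 of 17 tested MMP activators and membrane regulators was higher and 2 were lower, and 1 of 9 plasminogen activation genes was higher and 1 lower. Of 14 ADAM sheddases, among them Adam8 (0.084) and Adam17 (0.060), of 11 astacin and other matrix proteases and of 11 proteoglycan and glycoprotein substrates, 0 were called in either direction by edgeR at that threshold.

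The lists of the cells best known for these proteases overlapped between the groups in their summed levels. Neutrophil markers summed to 4401 to 6386 CPM in the LPS samples and 4252 to 5899 CPM in the LPS + Tan samples, macrophage markers to 3492 to 5209 and 3784 to 5306 CPM, and fibroblast markers to 3926 to 5162 and 4064 to 4579 CPM. At an unadjusted p below 0.05 by edgeR, 0 of 14 neutrophil, 1 of 15 macrophage (C1qa, higher), 0 of 12 fibroblast, 1 of 9 smooth muscle and pericyte (Cox4i2, higher), 2 of 11 endothelial (Kdr and Tek, higher), 0 of 9 alveolar and 2 of 6 airway genes (Ccdc153 and Trp63, lower) were called. Alveolar markers summed to at least 8532 CPM, airway markers to at least 12388 CPM and endothelial markers to at least 4147 CPM in every sample, which matches the lung label. Of all tested genes, 2.87% were called higher and 2.25% lower. Of the 15 macrophage genes 13 had log2 fold changes above 0, with a median of 0.088. The 7 erythroid genes all had log2 fold changes below 0, with a median of -0.47, sums of 1428 to 3456 and 1328 to 2178 CPM and 0 called, and the 7 cardiac muscle genes all had values above 0, with a median of 0.32 and 0 called. Of 5 mesothelial and 3 tested cartilage genes 0 were called, and of 5 tested adipocyte genes 1 was, Adrb3, higher. The part of these lists in the differences of the members was not tested.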

How the data were processed

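Lung RNA-seq of 4 LPS and 4 LPS + Tan samples was read from tables that the authors deposited, with the raw count of reads per gene and the FPKM of each sample. Per gene, the deposited FPKM values were proportional to the count's share of the sample total within 0.1% for 13814 of 13814 genes with enough counts. The submitters' processing notes name GRCm38 and mm10. Which aligner and counter were used, and whether strand was, is not given in the sources used here. Kits for extraction and library differ between the methods and the labels. Groups were taken from the labels, and 0 columns lacked a sample.

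The test was that of edgeR 4.0.16 under R 4.3.3 on the counts (filterByExpr, TMM, quasi-likelihood test of group, no covariate, LPS as the baseline) over all 24584 genes, of which 15706 were tested, with Benjamini-Hochberg adjustment. The standard error was the log2 fold change divided by the square root of F. The study's thresholds for a DEG are p below 0.05 without adjustment and a log2 fold change larger than 1 in size. Ratios and relations were tested by exact two-sided permutation. Between 38895654 and 39931970 counts per sample made depth nearly equal. Counts of samples of a group differed by 9.16 to 32.1 times sampling noise (median squared deviation), so no pair was counted as 1 sample; this does not show that they came from separate mice.

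The members, the related genes, the marker lists and the tests were chosen with earlier results of these data known. Named were the TIMPs, 16 further preset members, the 3 most abundant of each other family, its 2 with the largest fold change, every member called and 8 preset related genes with those called, of which 1 is not reported here. Adamts14 and the genes in overlap or marker lists were named beside these after their values were seen. Gene positions are of GENCODE vM21 and promoters of RefSeq. Alternatives were DESeq2 1.42.0, RLE scaling, total counts only, no filter, at least 1 CPM in 4 samples, limma-voom (limma 3.58.1), a replicate block, leaving out each sample, and limma on log2(FPKM + 1) of the tested and of all genes, or with 0.1 as pseudocount. The scripts were tested on simulated data.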

Additional observations from a re-analysis of the deposited data

Results flagged for a closer look

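Within each group of 4 samples, the extreme sample's gap to its nearest neighbour was taken as a share of the group's range in log2 CPM. Of 94 groups examined, 6 had a share above the 95% critical value of Dixon's test, where chance gives about 4.70. Mmp8 was low in LPS replicate 3, with a share of 0.919. Adamts4 was high in the same sample, with a share of 0.924. Adamts8, which codes for a protease of lung and heart, was high in LPS replicate 1, with a share of 0.878. In the LPS + Tan group, Adamts2 was low in replicate 4 with a share of 0.893, Mmp17 was high in replicate 4 with 0.834, and Mmp28 was high in replicate 2 with 0.865.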

How the results depend on the processing

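Mmp11, Mmp19 and Adamts10 stayed at an unadjusted p below 0.05 in all 18 alternatives, with p from 8.56e-07 to 0.00185, 0.00973 to 0.0455 and 0.00228 to 0.0371, while Mmp24, Timp1 and Timp3 lost this call in 8 alternatives each and Adamts15 in 5. With single samples left out, 2 to 4 members were higher and 1 to 8 lower, while 3.02% to 10.2% of all genes were called in either direction, and 0 to 1 (Adamts3, without LPS + Tan replicate 4) were lower at the DEG thresholds. Of the related genes, 0 to 5 were higher and 0 to 8 lower. The r of Mmp9 with the neutrophil list was 0.73 to 0.86, with an adjusted exact permutation p of 0.144 without LPS replicate 2 and 0.0610 without LPS + Tan replicate 1. The members called lower were 3 with limma on log2(FPKM + 0.1), where 5.80% of all genes were called in either direction. They were also 3 with limma on log2(FPKM + 1) of all genes, where 5.15% were. DESeq2 called 1 member and 0.226% of all genes at an adjusted p below 0.05. With limma on log2(FPKM + 1) of the tested genes, 1 related gene was called lower, and 5.86% of all genes in either direction. The cause of these changes was not tested.

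Some log2 fold changes changed sign, among them those of Mmp7 and Adamts4, which were 0.39 and -0.40 with all samples in. Mmp12 was -0.017 with limma-voom. With total counts only, Adamts2 was 0.026, Adamtsl4 0.021 and Bsg 0.011. With the limma fits on FPKM, Adamts2 was 0.014, Adamtsl4 0.018 to 0.019 and Bsg 0.014. With single samples left out, the range spanned 0 for Mmp7 (-0.012 to 1.44), Mmp12 (-0.62 to 0.47), Mmp13 (-0.084 to 0.47), Mmp14 (-0.0041 to 0.19), Mmp25 (-0.13 to 0.23), Adamts2 (-0.10 to 0.088), Adamts4 (-0.99 to 0.54), Adamtsl4 (-0.10 to 0.057), Timp4 (-0.39 to 0.0064), Bsg (-0.12 to 0.064) and Adam17 (-0.01 to 0.14). The median of all genes moved to at most 0.049 under other scalings.

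The replicate numbers are not stated to pair the samples, and the deviations of same-numbered samples correlated at 0.1825, -0.06064, -0.17 and 0.05701. With the replicate number as a block, 2 members were higher (Mmp11 and Adamts10) and 4 lower (Mmp19, Adamts15, Timp1 and Adamts3). In that fit 5.26% of all genes were called in either direction, Mmp12 was -0.089, and 0 members passed an adjusted p of 0.05 by edgeR.

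Counts of a few reads per sample, as for Mmp10 and Mmp21, limit the precision for these genes, and the spread between samples limits it for abundant members.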
